A study of Mus musculus with 8 samples.

Results

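The 10 genes described here mark heat-producing fat cells or switch on their mitochondrial program, and they were measured in epididymal white adipose tissue (eWAT), the visceral fat pad beside the epididymis, of wild-type (WT) and Abhd15 knockout (KO) mice. The 10 genes were taken from a list of names: Ucp1, Dio2, Cox8b, Cox7a1, Ppargc1a, Ppargc1b, Prdm16, Ebf2, Kcnk3 and Esrrg. They stand among 22180 genes with a probe set of their own on the array. A gene with several such probe sets is represented by its brightest, judged by the mean of the 8 arrays. Of the 10, 9 had a probe set of their own, and Kcnk3 had only probe sets that it shares with the predicted gene Gm9899.

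The arrays came from 3 WT and 5 Abhd15 KO mice, all males on a C57BL/6J background, on a normal chow diet and 14 weeks old. All had been fasted overnight and had then eaten chow for 1 h, so WT and KO tissue alike stands for the early refed state. Each mouse gave 1 array, from 200 ng of total RNA. The sources used here do not say how the Abhd15 allele was made, in which cells it is lost or whether the mice were littermates.

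White fat stores triglyceride, whereas brown and beige fat cells burn fuel to make heat. In those cells UCP1 lets protons leak back across the inner mitochondrial membrane, and noradrenaline, acting through cyclic AMP, both activates the protein and induces its gene. PGC-1alpha and PGC-1beta, encoded by Ppargc1a and Ppargc1b, are coactivators without DNA binding of their own that work with nuclear receptors such as the estrogen-related receptors to raise mitochondrial gene expression, and PRDM16 and EBF2 direct precursor cells to the brown and beige fate. Epididymal fat is among the mouse depots that brown least. ABHD15 has been linked to phosphodiesterase 3B, which breaks down cyclic AMP in fat cells under insulin, and this gives the question of whether cyclic AMP-responsive genes of this group differ in KO fat.

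Among the 10, Ppargc1a, Ucp1 and Dio2 are textbook targets of cyclic AMP, and the 250 bases before their annotated starts are shown with every TGACG, the half-site of the cyclic AMP response element, in capitals (read on both strands, so that CGTCA is capitalised too). The sequences are those of RefSeq in GRCm38.p6, whose promoter table held 7 of the 10 genes. They run 5′ to 3′ along the gene: Ppargc1a at chr5:51567726-51567975 (minus strand), Ucp1 at chr8:83290098-83290347 (plus strand) and Dio2 at chr12:90739039-90739288 (minus strand).
Ppargc1a: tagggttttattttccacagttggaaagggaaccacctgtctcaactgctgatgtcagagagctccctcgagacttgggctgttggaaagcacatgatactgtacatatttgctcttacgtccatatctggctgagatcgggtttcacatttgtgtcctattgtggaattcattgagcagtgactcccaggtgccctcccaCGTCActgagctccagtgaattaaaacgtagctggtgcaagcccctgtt
Ucp1: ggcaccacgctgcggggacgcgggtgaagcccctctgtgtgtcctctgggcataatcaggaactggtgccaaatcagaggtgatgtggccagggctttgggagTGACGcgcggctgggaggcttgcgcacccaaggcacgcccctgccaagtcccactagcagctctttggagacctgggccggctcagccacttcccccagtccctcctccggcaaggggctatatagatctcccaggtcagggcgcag
Dio2: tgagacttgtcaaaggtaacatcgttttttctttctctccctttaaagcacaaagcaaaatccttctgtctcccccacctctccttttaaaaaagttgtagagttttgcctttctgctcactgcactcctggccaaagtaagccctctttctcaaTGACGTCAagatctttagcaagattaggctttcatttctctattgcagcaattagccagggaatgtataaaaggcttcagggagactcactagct
The Ppargc1a window holds the half-site on the opposite strand, 49 bases before the start. The Ucp1 window holds it 147 bases before the start. In Dio2 a pair of overlapping half-sites, 95 and 92 bases before the start, forms the full palindrome TGACGTCA. No other of the 7 genes had TGACG in its window or windows. By comparison, 17.8% of the 32851 promoter windows of that length in the table held TGACG and 1.55% held TGACGTCA. The letters AAGGTCA, a core recognised by estrogen-related receptors, were in none of the 7 genes' windows and in 4.08% of all windows. Such matches describe letters only and say nothing of binding.

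Signals are log2 values made by robust multi-array averaging (RMA), so a difference of 1 is a doubling of signal. Levels were set against 2 marks. The first, 2.45, is the 95th percentile of the mean signal of 1394 olfactory and vomeronasal receptor genes, taken as genes that fat does not express. The second, 3.61, is the median over all genes, and only genes with a mean at or above it, 11090 in all, entered the main test. Dio2, at a mean of 2.45 over the 8 arrays, lay at background. Ucp1, at 2.97, lay above the receptor genes but below the median gene. The other 7 passed the level filter: Prdm16 (3.65), Cox7a1 (3.80) and Esrrg (3.90) only just, then Cox8b (5.01), Ppargc1b (5.53), Ppargc1a (6.26) and Ebf2 (7.75). Prdm16 passed through its WT mean, since its KO mean was 3.54. These are levels of different probe sets, which bind with different strength, so their order is that of signals and not of transcript amounts.

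**Figure D1:**
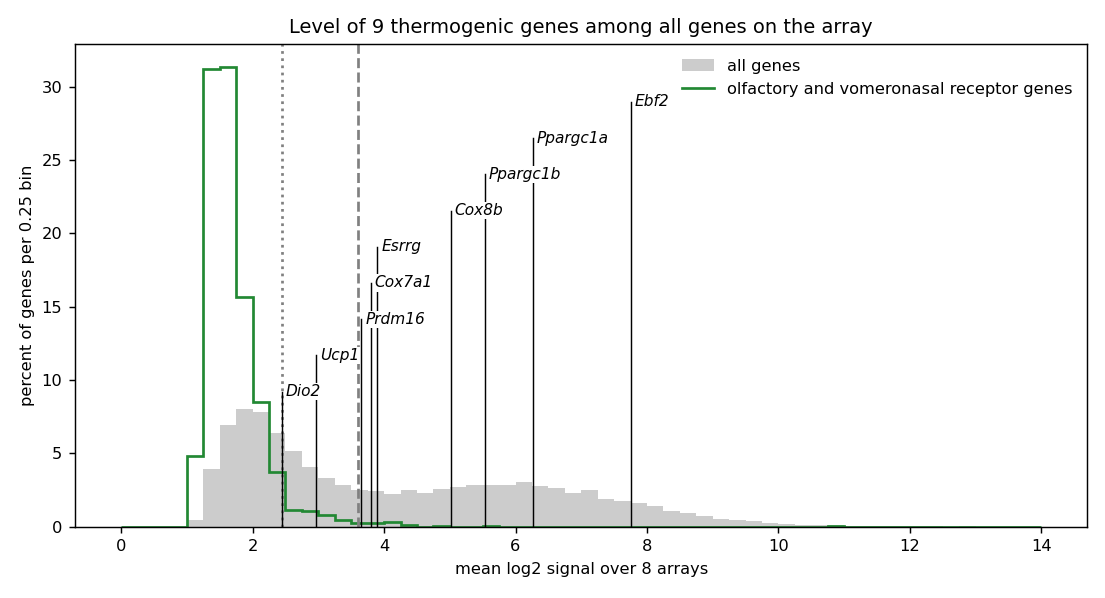
Histogram of the mean log2 signal over 8 arrays for all genes (grey) and for 1394 olfactory and vomeronasal receptor genes (green line), as percent of genes per bin of 0.25, with the positions of 9 thermogenic genes. The dotted line is the receptor genes' 95th percentile (2.45), on which Dio2 falls, and the dashed line the median of all genes (3.61), below which Ucp1 falls and just above which Prdm16, Cox7a1 and Esrrg fall.

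White fat markers were, on average, bright in every array, whereas brown and beige genes ranged from background to well above the level filter. All 9 white adipocyte markers passed the level filter, their mean signal lying between 9.56 and 9.69 in WT arrays and between 9.40 and 9.90 in KO arrays. Zic1 and Lhx8, transcription factors of classical brown fat, read 2.04 and 2.14 and were at background. Of the 9 white markers 4 were higher and 5 lower in KO, with a median difference of -0.04. Hoxc9, a positional gene of white depots and much dimmer than the mean of the list (4.18), was at a difference of 0.06. Lep, the hormone leptin, was at 0.25, or -0.01 without KO 1 and KO 2. Adipoq, the adipocyte hormone adiponectin, was at -0.30, or -0.50 without KO 1 and KO 2. The beige markers Tmem26 (2.46), Tbx1 (3.33) and Tnfrsf9 (2.35) were at or near background. Cited1 (3.74), a further beige marker, named after its values were seen, passed the level filter. Of the 27 measured brown and beige genes 17 passed the level filter, among them Slc29a1 (6.25), Hspb7 (6.23) and Epsti1 (5.15), which were named after their values were seen. Adrb3, Cpt1b and Ucp2, also on the lists used here, had no probe set of their own and were not analysed here.

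No gene of the 11090 passed the threshold of 0.05 after adjustment in limma (0.0%), and so none of the 7 tested members did. At an unadjusted p under 0.05 stood 1 of the 7, Ppargc1b, which was lower in KO, against 10.5% of all tested genes in either direction and 6.46% lower in KO. Of these 1164 genes 38.5% were higher in KO, and 48.7% of 978 were after the medians of the arrays had been set equal. With the replicate number as a block, 1997 genes and 3 of the 7 members (Ppargc1b, Cox8b and Ppargc1a) had an unadjusted p under 0.05, and 2 genes, neither of them a member, passed after adjustment. Abhd15 itself read 6.32 ± 0.157 (SD, n = 3) in WT and 5.89 ± 0.271 (SD, n = 5) in KO, a difference of -0.43 (adjusted p = 0.423 in limma), and the array labelled KO 3 lay inside the WT range. The sources used here do not place its probes relative to the deletion, so this does not check the labels. KO 1 and KO 2 had high immediate early genes, and KO 5 had low Adipoq (8.57 against 9.56 to 9.85 in the other KO arrays). Transcripts of the male reproductive tract were clearest in WT 1, WT 2 and KO 4. The epididymis gene Adam7, at 10.2 in KO 4, was also raised in KO 3 (4.93) and KO 5 (3.73). Averaged over 6 measured testis markers, WT 1 read 6.93, WT 2 read 5.61 and KO 4 read 5.36, against 3.64 to 4.28 in the other 5 arrays. The tissue is a mixture of cell types, and fewer cells of a type cannot be told apart from less RNA per cell.

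**Figure D2:**
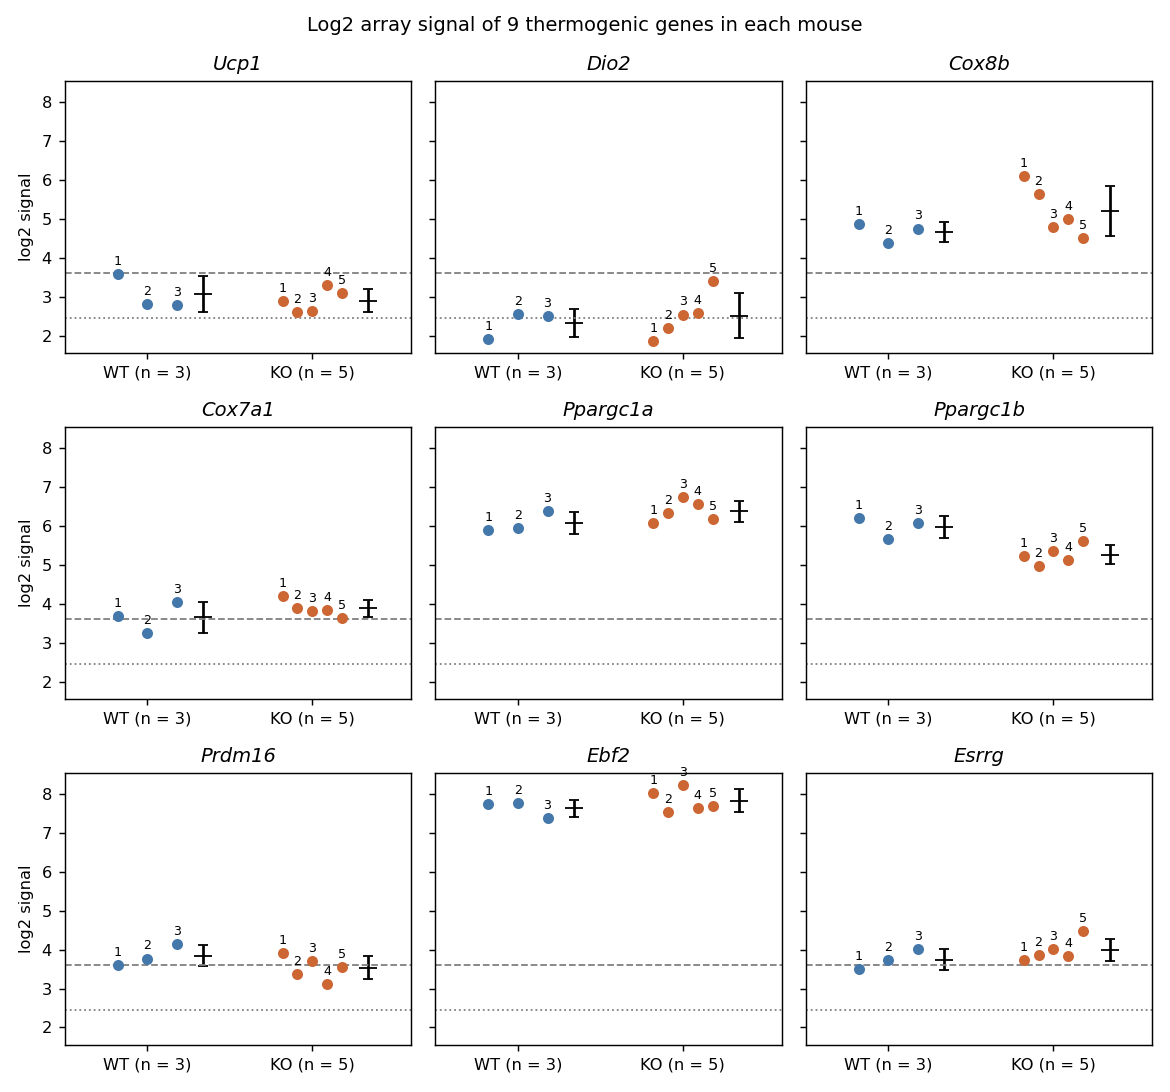
Log2 signal (vertical axis) of 9 genes in 3 WT mice (blue) and 5 KO mice (orange), 1 point per mouse with its replicate number, and the mean ± SD at the right of each group. The dotted line is the receptor-gene background (2.45) and the dashed line the level filter (3.61). Ppargc1b is the gene whose KO points, 4.98 to 5.62, all lie below its WT points, 5.67 to 6.21.

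Of the 2 PGC-1 coactivators, Ppargc1b had a lower mean in KO and Ppargc1a a higher one, and neither passed after adjustment. Ppargc1b read 6.21, 5.67 and 6.07 in WT 1 to WT 3, and 5.22, 4.98, 5.37, 5.13 and 5.62 in KO 1 to KO 5. Every KO array lay below every WT array, though KO 5 lay only just below WT 2. The means were 5.98 ± 0.279 (SD, n = 3) and 5.26 ± 0.245 (SD, n = 5), a difference of -0.72 (SE 0.178, 95% confidence interval -1.12 to -0.32). On a linear scale the KO signal was 0.608 times that of WT (0.462 to 0.801). This did not pass after adjustment over all tested genes (limma, unadjusted p = 0.00241, adjusted p = 0.254). By exact permutation of the arrays (two-sided) p was 0.0357, the lower limit for 3 against 5 arrays. Such a complete separation with KO below was found in 5.54% of all tested genes. Left-out arrays moved the difference between -0.87 (without WT 2) and -0.61 (without WT 1), and without WT 1 and KO 4 it was -0.57. Without KO 1 and KO 2 it was -0.61.

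Ppargc1a, the coactivator induced by cold, exercise and cyclic AMP whose promoter is shown above, read 5.89, 5.94 and 6.40 in WT 1 to WT 3. In KO 1 to KO 5 it read 6.09, 6.33, 6.73, 6.57 and 6.17. The groups overlapped, with 2 KO arrays (KO 3 and KO 4) above the highest WT array. The means were 6.07 ± 0.279 (SD, n = 3) and 6.38 ± 0.271 (SD, n = 5), a difference of 0.30 (SE 0.186, 95% confidence interval -0.11 to 0.72, adjusted p = 0.593 in limma). On a linear scale the interval reached up to 1.65 times WT. Without WT 1 and KO 4 the difference was 0.16.

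Within each array, so that a shift common to both probe sets drops out, Ppargc1b minus Ppargc1a was 0.32, -0.27 and -0.33 in WT 1 to WT 3. In KO 1 to KO 5 it was -0.86, -1.35, -1.37, -1.44 and -0.55, all lower than in WT. The group means differed by -1.02. This contrast was formed after the 2 genes' values were known and is given without a test.

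**Figure D3:**
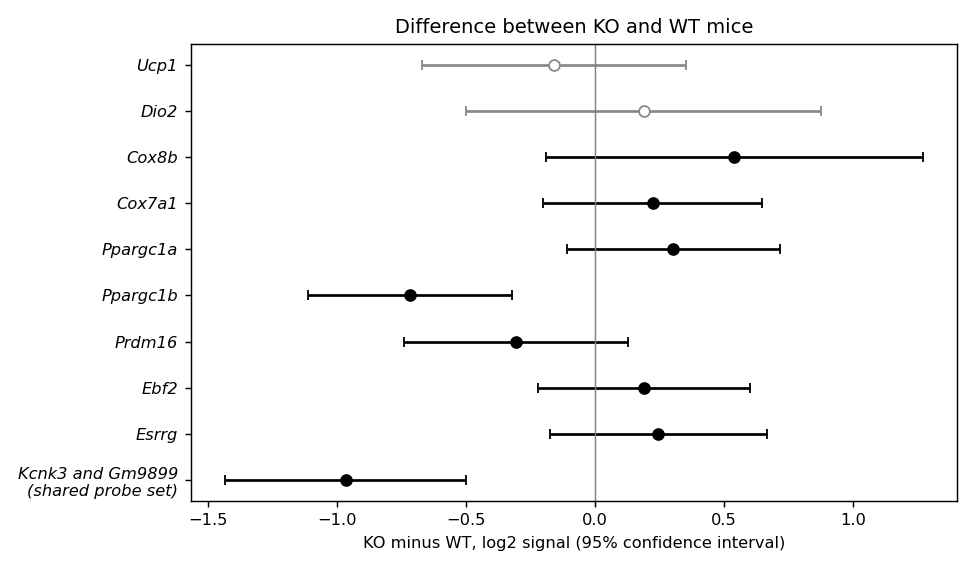
KO minus WT in log2 signal (point) with the 95% confidence interval from limma (bar) for 9 genes and for the probe set shared by Kcnk3 and Gm9899. Open grey points are the 2 genes below the level filter, from the fit without that filter. Only the intervals of Ppargc1b (-1.12 to -0.32) and of the shared probe set (-1.43 to -0.50) exclude 0, before any adjustment over genes.

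Ucp1, the defining gene of heat-producing fat, showed no difference larger than the spread between mice. It read 3.60, 2.82 and 2.78 in WT 1 to WT 3, and 2.90, 2.60, 2.63, 3.31 and 3.10 in KO 1 to KO 5. The difference was -0.16 (95% confidence interval -0.67 to 0.35, adjusted p = 0.875 in limma without the level filter). The highest Ucp1 signals in WT and in KO came from WT 1 and KO 4. In those arrays the mean of the 9 measured epididymis and seminal duct markers was 3.43 and 4.66, against 1.97 to 2.33 in the other 6 arrays. The 2 arrays were high for different markers. In WT 1 these were genes of the seminal vesicle, Svs5 (7.43), Svs4 (6.45) and Svs2 (6.38), with Adam7 at 1.67. KO 4 was high for the epididymis genes Adam7 (10.2), Rnase9 (8.60) and Lcn5 (8.56), with Svs2 at 2.03. Svs5 was also raised in WT 2 (4.51), and Adam7 in KO 3 (4.93) and KO 5 (3.73). Of the 9 markers 5 had a mean at or below background. Without WT 1 and KO 4 the Ucp1 difference was 0.01. The part of reproductive tract RNA in the Ucp1 signal was not tested.

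Dio2, the deiodinase that makes active thyroid hormone inside brown fat cells, read 1.91, 2.57 and 2.51 in WT 1 to WT 3, and 1.87, 2.19, 2.55, 2.58 and 3.40 in KO 1 to KO 5. Only KO 5 stood clearly above the receptor-gene background, and the groups overlapped. The difference was 0.19 (95% confidence interval -0.50 to 0.88, adjusted p = 0.891 in limma without the level filter), and it was -0.03 without KO 5. The second Dio2 probe set, dimmer, lay between 1.57 and 1.92 in all arrays and went the other way, with a difference of -0.13. With the mean of both probe sets the Dio2 difference was 0.03. For both genes a change near or below background could not have been seen, so the data set no limit on low levels of either transcript.

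Cox8b and Cox7a1 encode subunit forms of cytochrome c oxidase, the last complex of the respiratory chain, that are found in brown fat, heart and skeletal muscle. Cox8b read 4.87, 4.39 and 4.76 in WT 1 to WT 3. In KO 1 to KO 5 it read 6.11, 5.64, 4.81, 5.01 and 4.51. KO 1 and KO 2 stood well above all WT arrays, KO 4 slightly above, and KO 3 and KO 5 inside the WT range. The difference was 0.54 (SE 0.328, 95% confidence interval -0.19 to 1.27, adjusted p = 0.589 in limma), and 0.10 without KO 1 and KO 2. With the replicate block, which rests on KO 1 to KO 3, it was 0.84 (adjusted p = 0.207 in limma).

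Cidea, a lipid droplet protein abundant in brown fat, shared this pattern by mouse. It read 3.59, 3.77 and 3.38 in WT 1 to WT 3, and 5.41 and 5.14 in KO 1 and KO 2. In KO 3 to KO 5 it read 4.05, 3.91 and 4.11. All KO arrays lay above all WT arrays, as for 2.99% of tested genes, and the difference was 0.95 (adjusted p = 0.376 in limma), or 0.44 with KO 1 and KO 2 left out. Its WT mean, 3.58, lay just below the level filter, so it was tested through its KO values. In KO 1 and KO 2 the mean of 11 immediate early genes, which cells switch on within minutes of stimulation or handling, was 6.84 and 6.86, against 4.87 to 5.28 in WT. In KO 3 to KO 5 it was 5.93, 5.09 and 5.27. The mean of 3 measured erythroid genes was 3.03 and 3.58 in KO 1 and KO 2, against 2.11 to 2.48 in the other 6 arrays. The part of these in the Cox8b and Cidea signals was not tested. Ucp1, at 2.90 and 2.60 in KO 1 and KO 2, was not high in them.

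**Figure D4:**
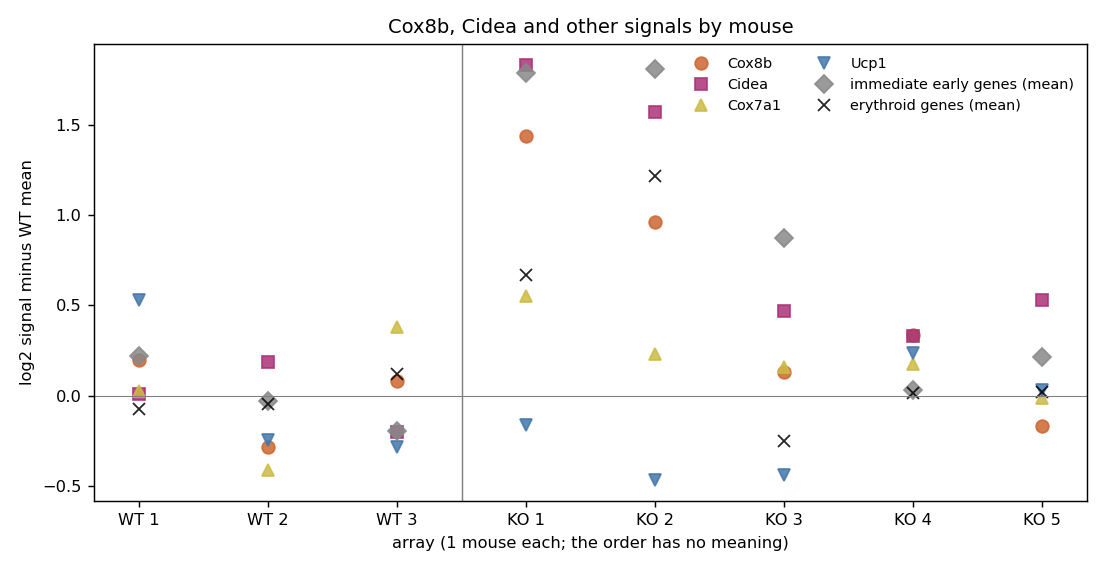
Log2 signal minus the WT mean (vertical axis) in each of 8 arrays (horizontal axis) for Cox8b, Cidea, Cox7a1 and Ucp1, and for the means of 11 immediate early genes and 3 erythroid genes. Cox8b, Cidea and both means are highest in KO 1 and KO 2, whereas Ucp1 is highest in WT 1.

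Cox7a1 read 3.68, 3.25 and 4.04 in WT 1 to WT 3, and 4.21, 3.89, 3.82, 3.83 and 3.65 in KO 1 to KO 5. Of the KO arrays, 4 lay inside the WT range and KO 1 above it. The difference was 0.22 (95% confidence interval -0.20 to 0.65, adjusted p = 0.717 in limma), 0.02 without WT 2, the lowest array, and 0.11 without KO 1 and KO 2. The forms of these subunits found in most tissues had differences of 0.07 (SE 0.151) for Cox8a and 0.09 (SE 0.124) for Cox7a2, and a difference between forms was not tested. Cox7a2l was at -0.07 and the core subunit Cox4i1 at 0.03. Of 10 tested cytochrome c oxidase genes outside the members, none passed before or after adjustment, 6 were higher and 4 lower, and the median difference was 0.03 against -0.03 for all tested genes.

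Since muscle also makes Cox8b and Cox7a1, skeletal muscle markers were read in the same arrays. Of 14 such markers 2 passed the level filter and 4 were at or below background. Their mean signal spanned 3.15 to 3.29 in WT and 3.09 to 3.42 in KO arrays. The muscle enzyme Ckm (3.11) and myoglobin, Mb (2.93), were near background, as was the muscle oxidase subunit Cox6a2 (3.45). The 2 that passed were Acta1, skeletal alpha-actin, at 5.87 to 9.13 over all arrays with a difference of 0.08, and Myl1, a fast muscle myosin light chain. Myl1 read 4.84, 5.40 and 5.22 in WT 1 to WT 3, and 6.10, 6.08, 5.68, 5.16 and 5.31 in KO 1 to KO 5. Myl1 was not among the genes fixed in advance. KO 1 and KO 2 were its highest arrays, as they were for Cox8b and Cidea. Acta1 did not share this pattern: it was highest in KO 5 (9.13), and KO 2 (6.43) lay below all WT arrays (6.96 to 7.69). The mean of the 14 markers was also highest in KO 5 (3.42). The Myl1 difference was 0.51 (adjusted p = 0.494 in limma), or 0.23 without KO 1 and KO 2. The part of muscle RNA in the Cox8b and Cidea signals was not tested.

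Prdm16 and Ebf2 act at the head of the brown and beige fate. Prdm16 read 3.61, 3.77 and 4.15 in WT 1 to WT 3. In KO 1 to KO 5 it read 3.91, 3.38, 3.70, 3.12 and 3.56, of which 3 lay below the lowest WT array. The difference was -0.31 (95% confidence interval -0.74 to 0.13, adjusted p = 0.606 in limma). It was -0.16 without WT 3, -0.20 without KO 4 and -0.18 with the replicate block. Its second probe set, at background (1.80 to 2.42 in all arrays), went the other way, with a difference of 0.28 between groups.

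Ebf2, the brightest of the 9, is also expressed in fat precursor cells. It read 7.75, 7.78 and 7.38 in WT 1 to WT 3, and 8.03, 7.53, 8.23, 7.63 and 7.70 in KO 1 to KO 5. The difference was 0.19 (95% confidence interval -0.22 to 0.60, adjusted p = 0.758 in limma), with 2 KO arrays above the WT range and the rest inside it. Without WT 3 it was 0.06, and with the mean of its 2 probe sets 0.07. The second Ebf2 probe set, at background (mean 2.08), differed by -0.05. The related factors Ebf1 (0.17) and Ebf3 (-0.10) did not pass either.

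Among 20 tested partners of PRDM16 and EBF2, none passed after adjustment. Of these, 14 were lower and 6 higher, with a median of -0.09, and 13 were lower and 7 higher when arrays were centred (median -0.06). Of all tested genes 6121 were lower and 4969 higher before centring. Pparg, the master regulator of fat cell formation and a partner of both proteins, read 10.6 ± 0.210 (SD, n = 3) in WT and 10.1 ± 0.170 (SD, n = 5) in KO. The Pparg difference was -0.47 (SE 0.147, adjusted p = 0.331 in limma), with every KO array below every WT array, as for 5.54% of tested genes. Cebpb, which forms a complex with PRDM16, was at 0.25 and Zfp423, a factor that holds fat cells in the white state, at 0.13, both within the spread between mice.

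Esrrg encodes estrogen-related receptor gamma, an orphan nuclear receptor that PGC-1 proteins coactivate and that is abundant in brown fat and heart. It read 3.50, 3.72 and 4.02 in WT 1 to WT 3, and 3.74, 3.87, 4.03, 3.85 and 4.47 in KO 1 to KO 5. KO 5 stood highest, KO 3 a hair above the WT range and the rest inside it. The difference was 0.25 (95% confidence interval -0.17 to 0.67, adjusted p = 0.683 in limma), or 0.12 without KO 5 and 0.12 without WT 1. Esrra, its more widely expressed relative, was at 0.04 (SE 0.205), and Esrrb was at background (2.23).

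The wider set of PGC-1 partners and mitochondrial biogenesis genes held no difference that passed, adjusted or not. Of 27 tested, 19 were lower and 8 higher in KO, with a median of -0.09, counts that stayed the same when arrays were centred (median -0.06). Of all tested genes 6121 were lower and 4969 higher, and 5450 and 5640 after centring. Pprc1, the third member of the PGC-1 family, was at -0.35 (SE 0.205, adjusted p = 0.579 in limma). Nrf1, an activator of mitochondrial genes, was at -0.24, and Tfam, which packages and transcribes mitochondrial DNA, at 0.01. Nrip1, a corepressor that opposes PGC-1alpha in fat, was at 0.29 and Ppara, a nuclear receptor that PGC-1alpha coactivates, at -0.14.

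Kcnk3 encodes TASK1, a potassium leak channel enriched in thermogenic fat cells, where it restrains the response to noradrenaline. It has no probe set of its own, and 2 probe sets carry its name together with Gm9899, so their signals cannot be assigned to either gene. The brighter one read 5.61, 4.81 and 5.14 in WT 1 to WT 3, and 4.49, 4.46, 4.15, 3.83 and 4.17 in KO 1 to KO 5, every KO array below every WT array. Among 12370 probe sets with a gene symbol and a mean at or above 3.61, 5.6% separated in that way. The means were 5.19 ± 0.405 (SD, n = 3) and 4.22 ± 0.269 (SD, n = 5), a difference of -0.97 (SE 0.209, 95% confidence interval -1.43 to -0.50, adjusted p = 0.190 in limma over those probe sets, a fit added after the values were seen). With each array left out in turn it ranged from -1.16 to -0.75. The other, dimmer probe set, at a mean of 3.28, differed by -0.10 between overlapping groups.

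Of 13 related two-pore potassium channel genes 4 passed the level filter, of which 3 were higher and 1 lower in KO, with a median of 0.58 and none past adjustment. Kcnk1 (1.17, SE 0.771) and Kcnk5 (0.39), not fixed in advance, were both highest in KO 4, at 7.85 and 5.18. KO 4 was also the array highest for Adam7. Kcnk1 differed from WT by -0.21 in KO 1 and KO 2 and by 2.09 in KO 3 to KO 5. The part of reproductive tract RNA in these signals was not tested. Kcnk2, which encodes TREK1, had a higher mean in KO. It read 3.05, 3.99 and 3.80 in WT 1 to WT 3, and 4.30, 4.61, 4.47, 4.31 and 4.22 in KO 1 to KO 5. All KO arrays lay above all WT arrays, as for 2.99% of tested genes. The difference was 0.77 (SE 0.205, adjusted p = 0.279 in limma), and its WT mean, 3.61, lay at the level filter.

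**Figure D5:**
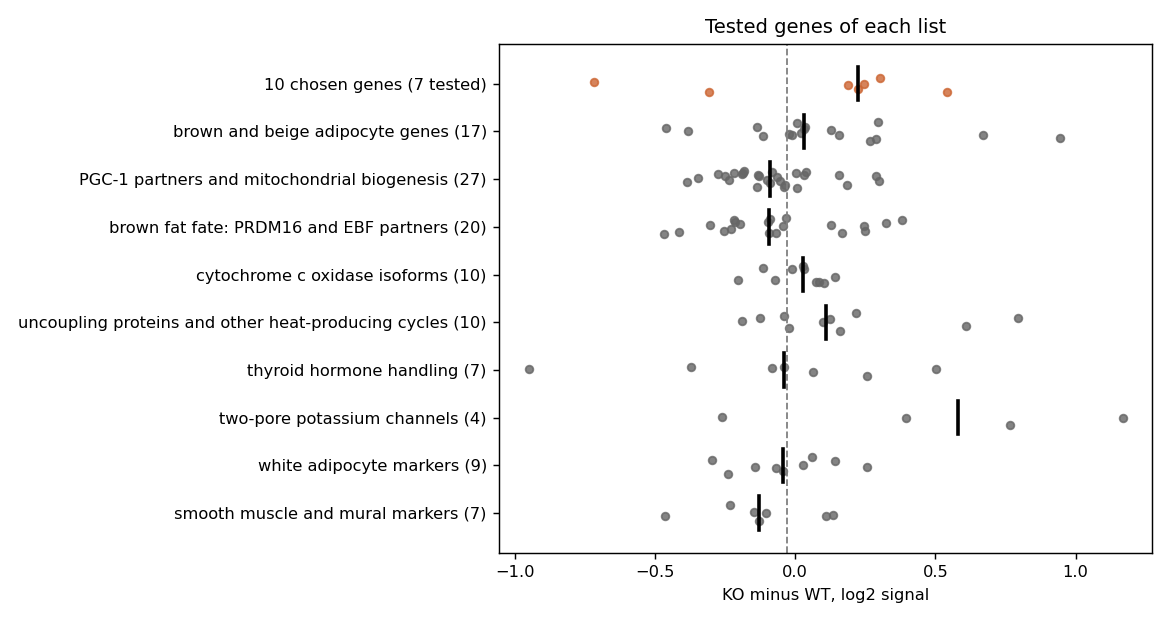
KO minus WT in log2 signal (horizontal axis) for each tested gene (points) of the 10 chosen genes and of the 9 other gene lists drawn, with the number tested in brackets (skeletal muscle, with 2 tested genes, and the reproductive tract lists are not drawn). Black bars are list medians and the dashed line is the median of all tested genes (-0.03). No point passed the adjusted threshold, and points of every list drawn lie on both sides of 0.

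Other genes tied to heat production were read from fixed lists, and none of them passed after adjustment. Of 17 tested brown and beige genes outside the members 11 were higher and 6 lower, with a median of 0.03, and 13 were higher when arrays were centred. Nrg4, a secreted product of brown fat, was at -0.38 (SE 0.237) and Fgf21, a hormone that promotes browning, at -0.02. Slc27a2, a fatty acid transporter, was at 0.29, with KO 1 at 2.94 and KO 2 to KO 5 at 5.43 to 6.45, and at 1.14 without KO 1 and KO 2. Elovl3, the fatty acid elongase of brown fat, was near background apart from WT 1 (4.31, against 2.31 to 2.59 elsewhere), and Otop1, a proton channel, was near background.

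Of 10 tested genes for uncoupling proteins and other heat-producing cycles, 6 were higher and 4 lower, with a median of 0.11. Ucp3, a relative of UCP1 found mainly in muscle and brown fat, had a mean signal of 6.75 ± 0.453 (SD, n = 3) in WT and 7.35 ± 0.211 (SD, n = 5) in KO, a difference of 0.61 (SE 0.205, adjusted p = 0.352 in limma). It read 7.24, 6.36 and 6.64 in WT 1 to WT 3 and 7.12 to 7.57 in KO, so WT 1 overlapped the KO range. The creatine kinase Ckb (0.22), the phosphatase Alpl (-0.19) of creatine cycling and the calcium pump Atp2a2 (-0.12) did not pass before or after adjustment. Among 7 tested genes of thyroid hormone handling 3 were higher and 4 lower. The receptors Thra (-0.08) and Thrb (-0.04) and the deiodinase Dio1 (0.06, near the level filter) did not pass either, and Dio3 was at background.

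Kcnk3 and some Kcnk channels are also found in vascular smooth muscle, so mural markers were read too. Their mean signal was 6.14 to 6.62 in WT and 6.15 to 6.50 in KO arrays. Of the 7, all tested, 2 were higher and 5 lower in KO, with a median of -0.13. The 2 higher ones were Acta2, smooth muscle actin, at 0.14, and the smooth muscle myosin Myh11, at 0.11. Tagln, named after its values were seen, was at -0.46, with every KO array below every WT array, as for 5.54% of tested genes. None of the 7 passed adjustment. The part of mural cells in the signal of the shared Kcnk3 probe set was not tested.

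For each of the 7 tested members, the tested genes whose signal followed it most closely over the 8 arrays are given as a description, without a test. For Ppargc1b these were Rilpl2 (Pearson r = 0.964 over 8 arrays) and Gtf2f1 (0.962), and for Ppargc1a they were Gnrh1 (0.972) and Sel1l3 (0.942). Cox8b was followed most closely by Mrpl34 (0.982), which encodes a mitochondrial ribosomal protein, and Eral1 (0.968), which encodes a factor that assembles the small mitochondrial ribosomal subunit. Those of Cox7a1 were Hlf (0.934) and Tifab (0.931). Trdmt1 (0.946) and Ccna2 (0.937) followed Prdm16, Ubxn7 (0.968) and Mcm3ap (0.938) followed Ebf2, and Vezf1 (0.969) and Mtss1 (0.954) followed Esrrg. With 8 arrays and 11090 genes, coefficients of this size are found for every member.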

How the data were processed

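Total RNA from eWAT of 8 mice, 1 Affymetrix Mouse Gene 2.0 ST array each, was measured by the authors. The deposited log2 values are RMA summaries per probe set. The submitters' processing notes name RMA and oligo, whereas the series design names Expression Console. The sources used here state neither their versions nor the annotation, build or any centring. Column medians ranged from 2.93 to 3.12, and the values were used as deposited. RMA compresses differences of dim probe sets, and precision is limited by how few arrays there are.

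Probe sets with 1 symbol (23521 of 41345, with 1814 naming several and 16010 none) were updated by Entrez identifier to GRCm38.p6 symbols (23328 matched), giving 22180 genes. KO and WT were compared with limma 3.58.1 (lmFit, eBayes, R 4.3.3), two-sided, with Benjamini-Hochberg adjustment over the 11090 genes tested and a threshold of 0.05. Exact permutation tests ran over 56 splits. The procedure was tested on simulated data. Nothing in the labels says whether mice shared a litter or an extraction, so p-values measure the spread between these arrays.

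The 10 genes and all lists were chosen with earlier results of these data known. Named are the 10 genes, fixed genes of each list and the 2 most like genes of each tested member. The 8 genes of the closing observations were named after their values were seen. Further list genes named in the text were not fixed in advance either. They include Cited1, Slc29a1, Hspb7, Epsti1, Myl1, Kcnk1, Kcnk5 and the reproductive tract genes. WT and KO share replicate numbers 1 to 3. Deviations of same-numbered arrays correlated at 0.133, 0.103 and 0.192, each above a limit of 0.1. Differently numbered arrays were not compared and the labels state no pairing, so whether the numbers pair the mice is not known. The main fit has no such block, and a fit that adds the numbers as a block was an alternative. There were 17 alternatives in all.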

Additional observations from a re-analysis of the deposited data

Results flagged for a closer look

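In 56 sets of 5 KO values (9 members, the named list genes and the shared probe set), 4 arrays stood far from the other 4 of their group, where chance gives about 1 in 20 sets. Adipoq, the adipocyte hormone adiponectin, was low in KO 5 (8.57, against 9.56 to 9.85 in the other KO arrays). The same array was low for the oxidase subunit Cox8a (10.3, against 10.7 to 10.8). Esrrb was low in KO 4 (1.98, against 2.36 to 2.49), at background throughout, and the thyroid hormone receptor Thra was low in KO 2 (5.68, against 5.90 to 5.98). None of the 9 members had such an array.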

How the results depend on the processing

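Ppargc1b, Ppargc1a, Cox8b, Cox7a1, Ebf2, Esrrg and Prdm16 kept their direction under every alternative that tested them (17 each, and 16 for Prdm16, which fell below the level filter with the mean of its probe sets), and none passed the adjusted threshold. Some of these alternatives could not change a direction. A lower or absent level filter and the trended, robust prior leave the difference itself unchanged. So does the mean of probe sets for a gene with 1 probe set. The adjusted p of Ppargc1b ranged from 0.0765 (array weights) to 0.734. Ucp1 and Dio2, fitted without the level filter, changed sign: Ucp1 was at 0.11 without WT 1 and 0.0078 without WT 1 and KO 4, and Dio2 at -0.02 without WT 1, -0.038 without WT 1 and KO 4, -0.03 without KO 5 and -0.13 with the replicate block. With arrays left out, Ucp1 ranged from -0.30 to 0.11 and Dio2 from -0.038 (without WT 1 and KO 4) to 0.51 (without KO 1 and KO 2). Of all tested genes 40 passed with array weights, 3 with a trended, robust prior and 2 with the replicate block, and 0 to 5 with single arrays left out, the 5 without KO 5. The count at an unadjusted p under 0.05, 1164, became 1871 with no level filter, 1873 with array weights, 1997 with the replicate block and 732 without WT 1 and KO 4, and ranged from 745 (without WT 1) to 1596 (without KO 5) with single arrays left out. The cause of these changes was not tested. The replicate block changed the call of no member.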

Other observations

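In the thermogenic, thyroid and mural gene lists, 8 genes not named in advance had an unadjusted p under 0.05. They were named after their values were seen, and none passed after adjustment over all genes. Of all tested genes 10.5% had such a p, and the lists that held the 8 had 17, 20, 10, 7 and 7 tested genes. The count leaves out genes named in advance, among them Cidea, Pparg and Ucp3, which also had such a p. Complete separation of the groups was found in 5.54% of all tested genes with KO below and in 2.99% with KO above. Zfp516, a zinc finger factor that works with PRDM16 at the Ucp1 promoter, read 5.61, 5.86 and 5.46 in WT 1 to WT 3 and 5.10 to 5.26 in KO, with every KO array below every WT array, a difference of -0.46 (SE 0.127, adjusted p = 0.291 in limma). Letmd1, a mitochondrial inner membrane protein needed for heat production in brown fat, read 7.74 to 7.78 in WT and 7.84 to 8.22 in KO, a difference of 0.30 (SE 0.131, adjusted p = 0.464 in limma). KO 1 and KO 2 were its highest arrays, at 8.22 and 8.21, and without them the difference was 0.185.

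Gamt, the enzyme that completes creatine synthesis, read 5.07, 5.92 and 5.40 in WT 1 to WT 3 and 5.70 to 6.91 in KO. Its difference was 0.80 (SE 0.283, adjusted p = 0.370 in limma), and the groups overlapped. Hr, a corepressor that binds thyroid hormone receptors, was lower in every KO array (4.21 to 6.32) than in any WT array (6.33 to 6.96), by the narrow gap between KO 1 and WT 2, with a difference of -0.95 (SE 0.420, adjusted p = 0.464 in limma).

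Pdk4, a kinase that shuts off pyruvate oxidation, differed by 0.67 (SE 0.266, adjusted p = 0.423 in limma), with overlapping groups. Cebpa, a factor that maintains the fat cell state, read 9.38 to 9.52 in WT and 9.56 to 9.99 in KO, a difference of 0.32 (SE 0.139, adjusted p = 0.454 in limma). The homeobox gene Hlx was at -0.41 (SE 0.182, adjusted p = 0.461 in limma), with overlap. Tagln, an actin-binding protein of smooth muscle, read 6.28 to 6.47 in WT and 5.78 to 6.00 in KO, a difference of -0.46 (SE 0.114, adjusted p = 0.254 in limma).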
